A study of Mus musculus with 8 samples.

Results

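The Src-family kinases are membrane-anchored tyrosine kinases, and 7 of them (Blk, Lck, Lyn, Fyn, Fgr, Src and Yes1) are described here with Csk, the kinase that holds them in check. The 8 genes were chosen by name, as the rows of the deposited table with these symbols, out of 38918 gene rows in all. The choice was made with earlier results of these data known. RNA of mouse BMiFLT3 (15-3) cells was sequenced after poly(A) selection. This is a single line of pro-B cells that comes from a B-cell precursor leukaemia of the mouse. The cells of one group carried a retrovirus that overexpresses Klf2, a zinc-finger transcription factor, and the cells of the other a retrovirus that overexpresses blue fluorescent protein (BFP). The column headers of both groups contain the letters BFP, so whether the Klf2 construct also encodes BFP was not settled here. The design asks which genes Klf2 regulates in B-cell progenitors.

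In a resting Src-family kinase, a phosphorylated tyrosine in the tail folds the protein into a closed, inactive form. Csk adds this phosphate, and phosphatases such as CD45, the product of Ptprc, remove it. In B cells the kinases phosphorylate the signalling chains of the pre-B-cell receptor and the B-cell receptor, to which Syk and its partners then bind. In the mouse, Blk, Fyn and Lyn act there side by side, while Lck is the main family member of T cells and Fgr is known mostly from myeloid cells.

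Each group held 4 sequencing lanes, which differed by about sampling noise and were summed, so each group is 1 library and no test of the conditions was possible. The Klf2 library had 30835450 exon reads (7682298 to 7741626 per lane) and the BFP library 30133978 (7506567 to 7588695 per lane). Levels are CPM, the usual counts-per-library-size unit, computed from exon reads with TMM factors. Genes are ordered by level only as CPM per kilobase of exon. Shares and sums over genes use reads or CPM, which favour long genes, unless given per kilobase. A ratio is the CPM of the Klf2 library over that of the BFP library, with an exact 95% interval that covers counting error only. A gene passed the rule when its ratio was at least 2-fold in either direction, its interval excluded 1 and it had at least 1 CPM in either library. Klf2 itself was at 113 CPM with Klf2, against 10.1 CPM with BFP, a ratio of 11.1 (9.93 to 12.6). Of 14 B-lineage markers matched in the table, 11 had at least 1 CPM and 0 passed the rule, which 8.12% of all tested genes passed in either direction. Their intervals nevertheless all excluded 1, with 4 above and 7 below. The surrogate light chain genes Vpreb1 and Igll1 had ratios of 1.49 and 1.43, and Cd79b and Blnk had ratios of 0.753 and 0.746, all 4 named after their values were seen, while Rag1, Rag2 and Dntt lay under 1 CPM in both libraries. The labels list 2 library kits and do not tie either to a group, so kit and construct cannot be told apart.

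The kinases of the family did not share a direction. Blk, Lck and Fgr were higher in the Klf2 library, Fyn was lower, and Lyn and Csk stayed within 2-fold. Of the 8 members, 6 had at least 1 CPM in either library. Of these, 3 passed the rule as higher, against 2.45% of all 10850 tested genes, and 1 passed as lower, against 5.67% of tested genes. In either direction the share was again 8.12%. The members were chosen with earlier results of these data known, so setting them beside these shares is no test of the family. At 1.5-fold in place of 2-fold the same 4 members passed, against 24.1% of tested genes in either direction (10.2% higher, 13.9% lower). With total-read scaling they passed too, against 8.86% in either direction (1.89% higher, 6.97% lower). Fgr reached 1 CPM only in the library where it was higher, so it could enter the tested genes only as higher. Src lay under the floor in both libraries, and Yes1 had 0 exon reads in both.

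**Figure D1:**
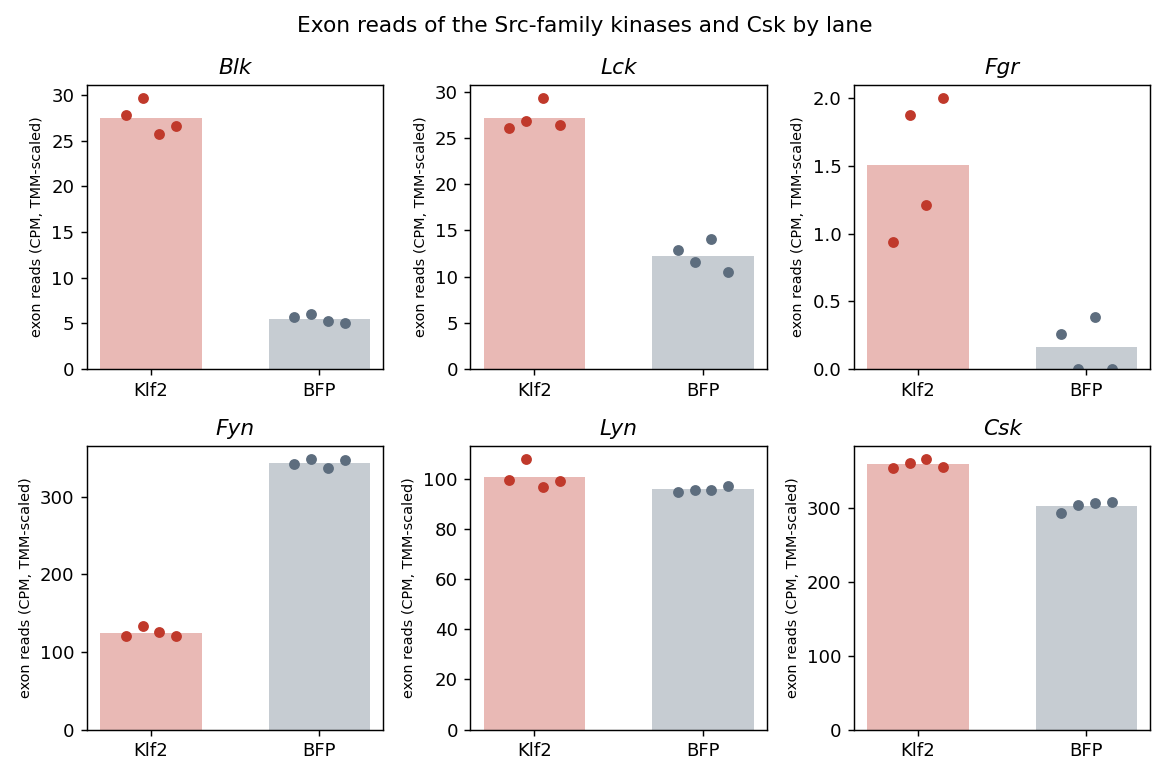
Exon reads of 6 members in CPM (TMM-scaled, linear axes from 0) in the Klf2 library (left, red) and the BFP library (right, grey). Points are the 4 lanes of a library and bars their mean. Whether the lanes of the groups overlap depends on read depth, and the overlap was not counted over all genes. Lanes of 1 library show counting error, not variation between cultures.

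Blk, a kinase largely restricted to B cells and their precursors, lies on chromosome 14, 63372837 to 63417187 (mm10), with 13 exons. It had 208, 221, 192 and 200 exon reads in the 4 lanes of the Klf2 library, and 44, 47, 41 and 39 in the 4 lanes of the BFP library. Every Klf2 lane was thus far above every BFP lane, though the lanes of 1 library differ by about counting error only. Its level was 27.5 CPM with Klf2, against 5.50 CPM with BFP, a ratio of 4.996 (4.23 to 5.93). This ratio took rank 22 from the highest among the 10850 tested genes. All exon reads of Blk were uniquely placed, so none was shared with another member. The deposited median coverage of the gene was 3 to 4 in the Klf2 lanes and 0 to 1 in the BFP lanes.

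Lck, the kinase that starts signalling from the T-cell receptor, lies on chromosome 4, 129548344 to 129573641. It had 195, 200, 218 and 198 exon reads in the Klf2 lanes, and 100, 90, 109 and 82 in the BFP lanes. The lanes of the groups did not overlap, with the same limit as for Blk. Its level was 27.1 CPM with Klf2, against 12.3 CPM with BFP, a ratio of 2.21 (1.96 to 2.51). This is just past the 2-fold limit, with an interval that reaches below 2-fold. In a bulk sample, fewer cells of a type and less RNA per cell cannot be told apart. Of 13 T-cell markers, 5 had 0 reads in both libraries, namely Cd3e, Cd4, Cd8a, Cd8b1 and Bcl11b. The whole T-cell list summed to 115 CPM with Klf2, against 162 CPM with BFP, and most of this came from Cd28 and Cd2, at 60.9 against 105 CPM and 45.3 against 49.4 CPM. Of the 5 tested markers in this list, only Zap70 was higher, as Lck was, with an interval clear of 1. For 3 of them the whole interval lay under 1, and for Cd247 the interval spanned 1. Zap70, a kinase that follows Lck in T cells, was at 5.42 CPM with Klf2, against 3.51 CPM with BFP, a ratio of 1.55 (1.21 to 1.99), and Cd247 had a ratio of 1.24 (0.781 to 1.97). These 4 markers were chosen for mention after their values were seen, and the part of T cells in the Lck reads was not tested.

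Fgr, on chromosome 4, 132974095 to 133001910, rested on few reads. It had 7, 14, 9 and 15 reads in the Klf2 lanes, and 2, 0, 3 and 0 in the BFP lanes. The libraries were at 1.51 CPM (Klf2) and 0.161 CPM (BFP), a ratio of 9.37 (3.73 to 30.2). The ratio was 18.7 when lane 3 was left out of both groups and 6.24 when lane 4 was left out. The 12 myeloid markers summed to 6.79 CPM with Klf2, against 12.9 CPM with BFP. Of these, 3 had at least 1 CPM, and Ly6g and S100a8 had 0 reads in both libraries. Tyrobp passed the rule as lower, as 5.67% of all tested genes did. It was at 0.703 CPM with Klf2, against 3.60 CPM with BFP, so it could enter the tested genes only as lower. The part of myeloid cells in the Fgr reads was not tested.

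Fyn, a broadly expressed kinase that serves T-cell and B-cell antigen receptors, lies on chromosome 10, 39368855 to 39565381, with 29 exons over 9 annotated transcripts. It had 901, 991, 936 and 905 exon reads in the Klf2 lanes, and 2648, 2703, 2609 and 2716 in the BFP lanes. The highest Klf2 lane was far below the lowest BFP lane, with the same limit as for Blk. Its level was 125 CPM with Klf2, against 343 CPM with BFP, a ratio of 0.364 (0.350 to 0.378). This was rank 267 from the lowest ratio among the tested genes. Of its exon reads, 61.0% in the Klf2 library and 59.2% in the BFP library were uniquely placed. On those reads alone, with the same scaling, the ratio was 0.375 (0.357 to 0.393). The deposited median coverage was 6 to 8 in the Klf2 lanes and 17 to 18 in the BFP lanes.

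Promoter sequences are shown for Fyn and Lck, the members past the rule that are best covered by reads among those matched in the RefSeq promoter table, because KLF factors bind CACCC boxes. Of the 8 members, 6 matched (Lck, Fyn, Fgr, Src, Yes1 and Csk), with 8 start sites in all, while Blk and Lyn did not match. Each sequence runs from 250 bases before to 50 after a start site (GRCm38.p6, 300 bases, written along the gene's strand), and capitals mark CACCC or its reverse complement GGGTG. The first line is Fyn on the plus strand, chr10:39369549-39369848. The next are the upstream and downstream start sites of Lck on the minus strand, chr4:129573592-129573891 and chr4:129558323-129558622, which lie 15269 bases apart.
Fyn: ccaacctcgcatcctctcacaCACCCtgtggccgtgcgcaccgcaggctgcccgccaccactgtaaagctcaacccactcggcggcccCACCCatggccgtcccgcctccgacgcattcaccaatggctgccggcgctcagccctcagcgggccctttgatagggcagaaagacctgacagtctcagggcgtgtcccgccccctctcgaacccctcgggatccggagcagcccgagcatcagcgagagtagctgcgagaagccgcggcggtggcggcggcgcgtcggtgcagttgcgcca
Lck upstream: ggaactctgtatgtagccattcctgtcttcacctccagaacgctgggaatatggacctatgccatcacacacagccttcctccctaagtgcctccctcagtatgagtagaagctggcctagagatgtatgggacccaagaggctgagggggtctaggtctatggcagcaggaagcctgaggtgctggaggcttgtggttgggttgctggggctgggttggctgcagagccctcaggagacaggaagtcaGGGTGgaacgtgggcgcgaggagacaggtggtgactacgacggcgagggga
Lck downstream: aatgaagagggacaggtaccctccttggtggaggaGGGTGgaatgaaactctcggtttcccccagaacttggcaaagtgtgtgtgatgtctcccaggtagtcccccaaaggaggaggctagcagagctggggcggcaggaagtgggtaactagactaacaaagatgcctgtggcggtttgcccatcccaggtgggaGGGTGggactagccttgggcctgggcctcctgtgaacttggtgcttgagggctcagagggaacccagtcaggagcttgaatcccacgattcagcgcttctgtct
The Fyn window and the downstream Lck window each hold 2 matches, and the upstream Lck window holds 1. All 8 windows of the 6 members hold at least 1 match, against 57.5% of the 32851 windows of this length in the table. The 8 windows are 56.0% to 82.3% G and C, and the comparison was not matched for this. A match is a stretch of letters and not a measured binding site. Members that differed in opposite directions both hold it, as do Csk, Src and Yes1, which did not pass the rule. The deposited counts are not split by start site, so the use of the Lck start sites was not analysed here.

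Lyn, which in B cells both starts receptor signals and recruits inhibitory phosphatases, lies on chromosome 4, 3678115 to 3813122. It had 743, 803, 720 and 744 exon reads in the Klf2 lanes, and 734, 742, 741 and 759 in the BFP lanes. The groups overlapped. Its level was 101 CPM with Klf2, against 95.7 CPM with BFP, a ratio of 1.05 (1.0001 to 1.11). With total-read scaling in place of TMM the ratio was 0.988 (0.939 to 1.04), so its direction depends on the scaling.

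Csk, on chromosome 9, 57626647 to 57645653, was slightly higher. It had 2645, 2693, 2722 and 2669 exon reads in the Klf2 lanes, and 2265, 2360, 2372 and 2406 in the BFP lanes. The level was 359 CPM with Klf2, against 302 CPM with BFP, a ratio of 1.19 (1.15 to 1.22). The lanes did not overlap although the ratio stayed far from 2-fold, since lanes of 1 library differ by about counting error only. Among the tested genes, Csk took rank 3202 from the highest ratio and Lyn rank 4667, against rank 181 for Lck and rank 7 for Fgr.

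Src, the founding member of the family, had 12 exon reads in the Klf2 library and 8 in the BFP library, a ratio of 1.56 (0.587 to 4.40) that shows no direction at this depth. Yes1, a close relative of Src, had 0 exon reads in both, which allows up to 0.100 CPM in the Klf2 library and 0.0965 CPM in the BFP library (3 reads). The 2 genes thus contributed next to nothing to the family total.

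The summed reads of the kinases were lower in the Klf2 library, and their makeup differed. The 7 kinases together had 8432 exon reads in the Klf2 library against 14217 in the BFP library, a ratio of 0.617 (0.601 to 0.634). Without Fyn the remaining kinases had 4699 reads in the Klf2 library against 3541 in the BFP library, a ratio of 1.38 (1.32 to 1.44). The sum without Fyn was thus higher and the sum with Fyn lower. Summed per kilobase of exon, the ratio was 0.683 for the 7 kinases and 1.52 without Fyn. Per kilobase of exon, the kinase total was 0.568 times the level of Csk in the Klf2 library and 0.988 times in the BFP library.

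Fyn made up 44.3% (43.2 to 45.3) of kinase exon reads in the Klf2 library and 75.1% (74.4 to 75.8) in the BFP library. Blk made up 9.74% (9.11 to 10.4) in the Klf2 library and 1.20% (1.03 to 1.40) in the BFP library. For Lck the shares were 9.62% (Klf2) and 2.68% (BFP), and for Lyn 35.7% (Klf2) and 20.9% (BFP). A share moves with every other member, and the larger share of Lyn in the Klf2 library goes with a nearly equal level. Among the kinases other than Fyn, the share of Lyn was in fact smaller, at 64.1% in the Klf2 library against 84.0% in the BFP library, while Blk was at 17.5% (Klf2) and 4.83% (BFP). Counted over all 8 members, Csk included, Fyn was 19.5% of reads in the Klf2 library and 45.2% in the BFP library, and Csk 56.0% in the Klf2 library and 39.8% in the BFP library.

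Levels per kilobase of exon gave a different order of the kinases in each library. In the Klf2 library the order was Csk (131), Fyn (28.6), Lyn (24.7), Blk (11.1), Lck (9.27) and Fgr (0.390), all in CPM per kilobase. In the BFP library it was Csk (110.04), Fyn (78.7), Lyn (23.5), Lck (4.18), Blk (2.22) and Fgr (0.0416) CPM per kilobase. Fyn and Lyn stood close together in the Klf2 library and far apart in the BFP library, and Blk and Lck changed places. On uniquely placed exon reads alone, Fyn had 2276 and Lyn 2286 in the Klf2 library, and 6316 and 2281 in the BFP library. The exons of Fyn are longer (4363 bases against 4073), so its place above Lyn in the Klf2 library holds only with multiply placed reads included. Per kilobase, with all exon reads, Fyn was 38.6% of the kinase total in the Klf2 library and 72.4% in the BFP library.

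**Figure D2:**
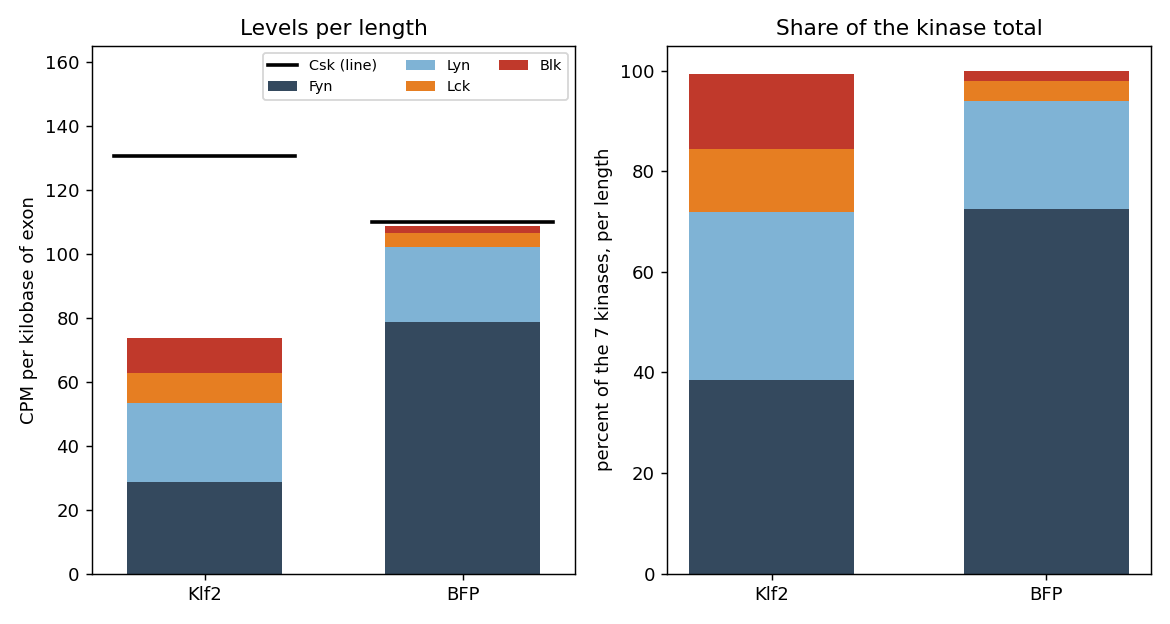
Left, CPM per kilobase of exon of Fyn, Lyn, Lck and Blk stacked, with the level of Csk as a black line. Right, the share of each in the per-length total of the 7 kinases, in percent (Fgr, Src and Yes1 are too small to draw). In both panels the Klf2 library stands left of the BFP library. Fyn is 38.6% in the Klf2 library and 72.4% in the BFP library, and Blk is 15.0% and 2.04% in the same order. All exon reads are used, and on uniquely placed reads alone Fyn does not stand above Lyn in the Klf2 library.

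The reads were also counted in classes that the exon totals do not separate. Reads across exon junctions come from spliced RNA. For Blk there were 196 in the Klf2 library against 38 in the BFP library, a ratio of 5.37 (3.78 to 7.81), and for Lck 271 against 135, a ratio of 2.09 (1.69 to 2.59). For Fyn there were 958 junction reads in the Klf2 library against 2599 in the BFP library, a ratio of 0.384 (0.356 to 0.413). Each of the 3 kinases had a junction ratio on the same side of 2-fold as its exon ratio. The junction reads are among the exon reads, so these ratios are not independent.

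Reads of a gene outside its exons, which can come from introns of unspliced transcripts, gave a less uniform picture. Blk had 269 such reads in the Klf2 library against 68 in the BFP library, a ratio of 4.12 (3.14 to 5.45), whose interval overlaps that of the exon reads. Fyn had 1563 in the Klf2 library against 3554 in the BFP library, a ratio of 0.458 (0.431 to 0.486), closer to 1 than on exon reads and with no overlap of the intervals. For Lyn the ratio outside exons was 1.31 (1.22 to 1.42), from 1521 reads in the Klf2 library against 1207 in the BFP library, above the interval of its exon reads. On the uniquely placed reads among them, 1193 (Klf2) against 1002 (BFP), it was 1.24 (1.14 to 1.35), also above that interval. For Lck only 42 reads (Klf2) and 34 reads (BFP) lay outside exons, and their ratio of 1.29 (0.798 to 2.08) did not exclude 1. For Csk the ratio was 1.17 (1.02 to 1.34), near that of its exons. Over all genes the share of gene reads outside exons was 15.1% in the Klf2 library and 15.2% in the BFP library.

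**Figure D3:**
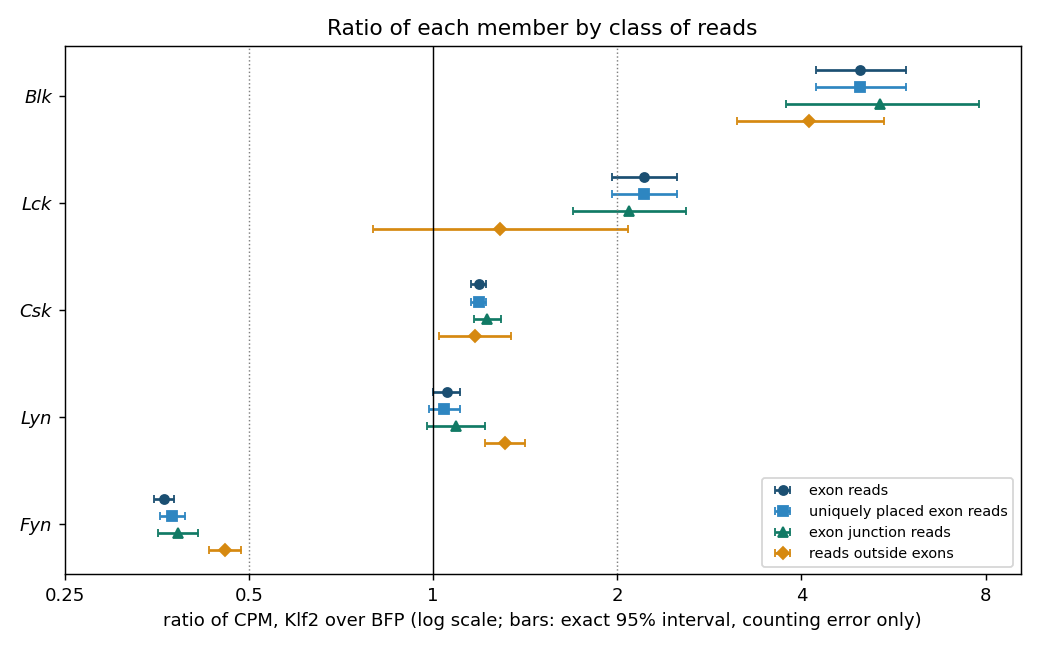
Ratio of CPM, Klf2 over BFP, on a log axis for 5 members and 4 classes of reads, with exact 95% intervals (counting error only). Solid line, a ratio of 1; dotted lines, 2-fold in either direction. Blk lies above 2 and Fyn below 0.5 in all 4 classes, while Lck lies at 1.29 for reads outside exons, with an interval from 0.798 to 2.08. Uniquely placed exon reads and junction reads are parts of the exon reads, so the classes are not independent.

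For each tested member, the nearest tested gene on either side was taken, and 0 of these 12 genes passed the rule, against 8.12% of all tested genes. Beside Blk lie Fdft1, a squalene synthase gene, at 81.5 CPM with Klf2, against 111 CPM with BFP (ratio 0.736), and Mtmr9 at 48.5 against 47.9 CPM (ratio 1.01). Beside Lck, the histone deacetylase gene Hdac1 lies 5631 bases away and had a ratio of 1.503 (1.45 to 1.56), and Eif3i, a translation initiation factor gene, had a ratio of 1.18. Beside Fyn, Wisp3 had a ratio of 0.978 (0.643 to 1.49) and Traf3ip2 of 0.803. Beside Fgr, Fam76a had a ratio of 0.735 and Ahdc1 of 0.740. Within 500 kb, 5 tested genes lie near Blk, 19 near Lck and 6 near Fyn. Of these, 1 passed the rule near Blk (Wdfy2, log2 ratio -1.38) and 1 near Lck (Ccdc28b, log2 ratio -1.36), both as lower and both named after their values were seen, and 0 passed near Fyn. Of the tested genes near Csk 3 of 19 passed, near Fgr 0 of 17 and near Lyn 0 of 6. With so few genes a window, these counts were not set apart from the 8.12% of all tested genes.

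**Figure D4:**
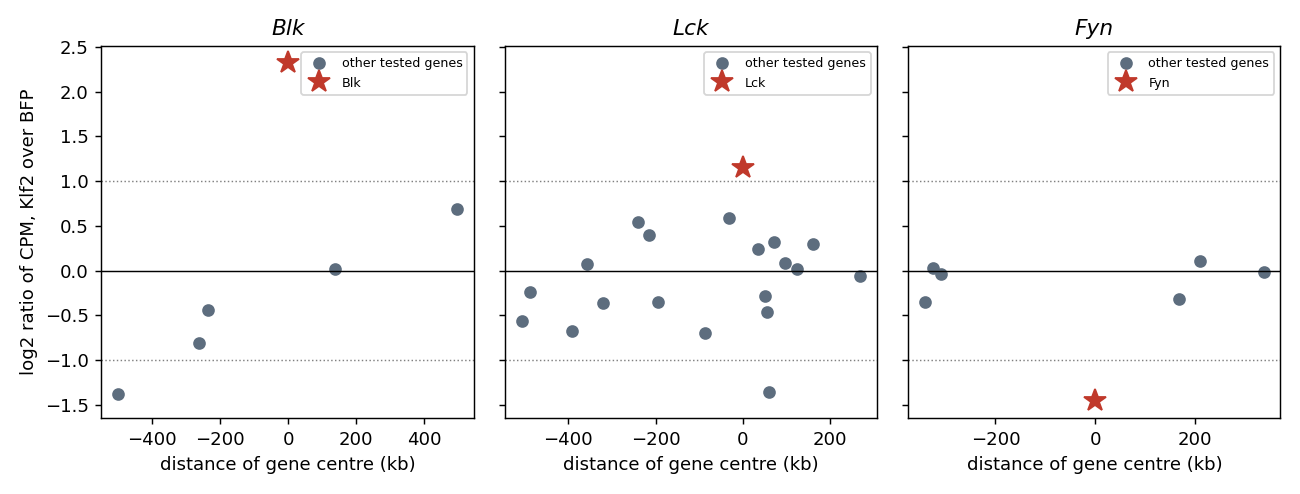
Log2 ratio of CPM, Klf2 over BFP, for Blk, Lck and Fyn (red stars) and the other tested genes within 500 kb (grey points), against the distance between gene centres in kb. Dotted lines mark 2-fold. Blk and Lck lie above all genes around them, and Fyn lies below.

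Few regulators and targets of the family passed the rule, namely the phosphatase gene Ptpn22 and the adaptor gene Lax1. Over 54 genes in 7 lists of regulators and targets, 47 were tested, 2 passed the rule as higher, against 2.45% of all tested genes, and 0 as lower, against 5.67%. The median log2 ratio was -0.01, as it was over all tested genes. With total-read scaling Gab2 and Tec also passed, as lower, at ratios of 0.477 and 0.474. They were 2 of the 47 tested, while 6.97% of all tested genes passed as lower with that scaling. None of the 4 genes in the list of other Src-related kinases reached 1 CPM in either library.

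Of 10 phosphatases that act on the family, 1 passed the rule, near the 8.12% of all tested genes, and the list median was 0.03 on the log2 scale. Ptpn22, which works with Csk and removes the activating phosphate of Lck and Fyn (chromosome 3, 103859795 to 103912247), was at 19.9 CPM with Klf2, against 5.08 CPM with BFP. The ratio was 3.92 (3.28 to 4.70), from 595 reads in the Klf2 library against 158 in the BFP library. Ptpn12 (PTP-PEST) was at 24.7 CPM with Klf2, against 35.2 CPM with BFP, and Ptpn11 (SHP2) at 239 against 180 CPM. Of 3 tested genes in a list of relatives of Csk and membrane adaptors, Lax1 passed, as higher, against 2.45% of all tested genes. Lax1, a membrane adaptor of lymphocytes that damps antigen receptor signals (chromosome 1, 133679029 to 133690108), had 104 reads in the Klf2 library against 17 in the BFP library, a ratio of 6.37 (3.79 to 11.3). Its levels were 3.48 CPM with Klf2, against 0.547 CPM with BFP, so like Fgr it could enter the tested genes only as higher, and it was not tested with a floor of 10 CPM. Pag1, the membrane anchor of Csk, was at 61.3 CPM with Klf2, against 59.4 CPM with BFP, and Matk, a relative of Csk, at 2.81 against 3.15 CPM.

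None of the other lists had a gene past the rule. Of 4 ubiquitin ligases, Socs1 was at 0.970 CPM with Klf2, against 1.19 CPM with BFP, and Itch and Cblb had ratios of 0.870 and 0.906. Of 7 genes of lipid anchoring and trafficking, the acyltransferase genes Zdhhc21 and Zdhhc20 had ratios of 0.811 and 0.832. Nmt1, which adds the myristoyl group that tethers the kinases to the membrane, had one of 0.871, and the list median was -0.06. Among 13 tested receptor chains and adaptors that the kinases phosphorylate, 4 had an interval above 1 and 7 below, with a median of -0.07. There the scaffold gene Gab2 was at 76.1 CPM with Klf2, against 150 CPM with BFP, the inhibitory adaptor gene Dok3 at 71.1 against 119 CPM, and Dok2 at 3.21 against 1.77 CPM. Among 11 tested kinases and lipases downstream, 6 had an interval above 1 and 3 below, with a median of 0.35. Plcg2, the phospholipase of the B-cell receptor, was at 660 CPM with Klf2, against 377 CPM with BFP, a ratio of 1.75 (1.71 to 1.79). Tec, the gene of a kinase that acts on such phospholipases, was at 15.3 CPM with Klf2, against 30.3 CPM with BFP, a ratio of 0.504 (0.450 to 0.565). Over all tested genes, 4029 intervals lay above 1 and 4047 below, so a count of intervals alone sets no list apart.

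**Figure D5:**
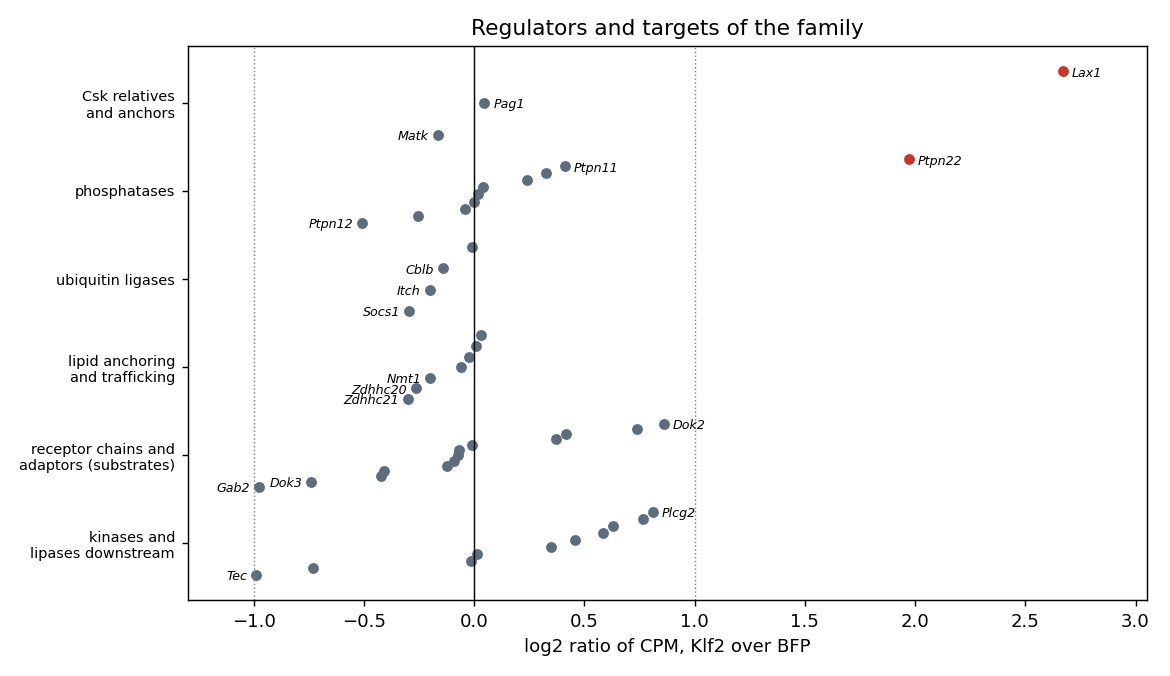
Log2 ratio of CPM, Klf2 over BFP, for the tested genes reported here from 6 lists of regulators and targets of the family, with named genes labelled. Dotted lines mark 2-fold, red points passed the rule and grey points did not. Lax1 and Ptpn22 lie apart on the right, and Gab2 and Tec lie just inside the lower limit. The list drawn as Csk relatives and anchors holds Lax1 as a membrane adaptor.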

How the data were processed

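Poly(A) RNA was sequenced in 4 lanes per construct (8 samples), per the labels' protocols. Per the submitters' processing notes, CASAVA 1.8.2 was used and the build is mm10. For the aligner, counting program, annotation and strand setting: not given in the sources used here. Of 9 rows of the table that overlap a member, none had more than 1 read in a library.

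Per the file headers, the authors' deposited values are counts of exon, uniquely placed exon, gene and junction reads per lane, RPKM, a median coverage signal per gene, and a fold written as a signed score. RPKM was checked by recomputing it from the counts (largest difference 0.0258). The authors' deposited table gives folds of 4.70 for Blk, 2.08 for Lck and -2.92 for Fyn, negative meaning lower with Klf2. Chi-square of lane counts per degree of freedom was 1.28 (Klf2) and 1.30 (BFP) on all exon reads, and 1.04 (Klf2) and 1.03 (BFP) on uniquely placed reads, all under a limit of 1.5. Lanes were summed and counted as 1 sample. Reads carry no molecular identifiers, so intervals cover counting error only.

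TMM factors came from edgeR 4.0.16 in R 4.3.3 (0.969 for Klf2, 1.03 for BFP), and intervals are Clopper-Pearson, conditional on the summed reads (scipy 1.17.1). Members and lists were chosen with earlier results of these data known. Named genes are the members, Klf2, list genes past the rule (up to 3 per list by size of ratio where fewer pass; some list genes are not reported here), and the nearest tested neighbours of members past the rule. No ranking by likeness was made, since 2 libraries give 1 difference per gene.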

Additional observations from a re-analysis of the deposited data

How the results depend on the processing

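Each library stands alone, so no result has a replicate check. No paired analysis was possible because the lane numbers name lanes of 1 library and no test was made. The ratios of Blk (4.69 to 5.03), Lck (2.08 to 2.29), Fyn (0.342 to 0.394) and Csk (1.12 to 1.21) kept their direction and their side of the rule in all 9 alternatives. Lyn was at 0.988 with total-read scaling and 0.990 with deposited RPKM, and between 1.02 and 1.07 with each lane left out. On all gene reads, which include reads outside exons, it was at 1.15 (1.10 to 1.20). Fgr did not reach 1 RPKM (ratio 8.78), and ranged from 6.24 to 18.7 over the lanes left out. Src was at 0.912 without lane 1 and at most at 2.34.

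Over all genes, 266 passed the rule as higher and 615 as lower, of 10850 tested. With no floor these counts were 432 and 867 of 16691, and with a floor of 10 CPM they were 121 and 277 of 8509. At 1.5-fold they were 1112 and 1505 of 10850. With RPKM, which also had no interval, they were 128 and 559 of 9876. In the regulator lists 1 of 38 tested genes (Ptpn22, without Lax1) was higher with the floor of 10 CPM. At 1.5-fold 7 of 47 were higher and 5 lower, against 10.2% and 13.9% of all tested genes. With total-read scaling 2 of 47 were lower, against 6.97% of all tested genes, and with RPKM 2 of 43, against 559 of 9876. With a lane left out, 0 to 2 of 47 were lower, among them Gab2 and Tec without lane 2. Over all genes 632 to 654 were then lower, of at least 10845 tested. Total-read scaling moved the median log2 ratio of all genes by -0.09.

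The share of Blk among the 8 members (4.28% in Klf2, 0.724% in BFP) was 4.84% and 0.921% on uniquely placed reads, 4.73% in Klf2 on all gene reads, and 5.42% and 1.02% with RPKM. That of Fyn was 13.4% and 34.0% on uniquely placed reads, 23.0% and 49.2% on gene reads, and 14.0% and 35.98% with RPKM. Other sets of members, chosen after seeing the data, gave 9.74% and 1.20% (Blk) and 44.3% and 75.1% (Fyn) without Csk, and 17.5% and 4.83% (Blk) without Csk and Fyn. In each pair Klf2 comes before BFP.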

Other observations

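Yes1 had reads outside its exons, 7 in the Klf2 library and 5 in the BFP library, while its exons had none. Only 1 of these reads in the Klf2 library and 3 in the BFP library were uniquely placed. Of 6 natural killer cell markers, 3 had 0 reads in both libraries and the list summed to 1.31 CPM with Klf2, against 3.51 CPM with BFP. Only 1 of them, Klrk1, was tested, and it passed the rule as lower, as 5.67% of all tested genes did. Of 4 erythroid and megakaryocyte markers matched, 3 had 0 reads in both libraries and the list summed to 1.54 CPM with Klf2, against 2.22 CPM with BFP. Among tested genes ordered by CPM per kilobase, Blk stood at percentile 54.7 in the Klf2 library and 18.9 in the BFP library, and Fyn at percentile 78.2 in the Klf2 library and 93.8 in the BFP library.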
